A study of Caenorhabditis elegans with 2 samples.

Results

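The genes described here are hsp-60, hsp-1, hsp-3 and hsp-110 of the nematode Caenorhabditis elegans, which encode chaperones of the mitochondrion, the cytosol and the endoplasmic reticulum. They are 4 of the 22 genes whose symbol starts with hsp-, among 19973 protein-coding genes on the nuclear chromosomes, and they were chosen on the deposited peaks themselves: each has a peak in its promoter window, from 1000 bp upstream to 200 bp downstream of the gene start, in the pooled thresholded peak list. The presence and the signal of those peaks are therefore description and were not tested.

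The peaks came from chromatin immunoprecipitation followed by sequencing of F44E2.7 fused to EGFP, in whole larvae at the L4 stage, 48 hours old, synchronised by L1 starvation after bleaching. The 2 biological replicates form a single group of the strain OP381, in which the transgene wgIs381 carries F44E2.7::TY1 EGFP 3xFLAG together with an unc-119(+) copy beside the unc-119(tm4063) allele. Both replicates carry all of these alleles, and no untagged larvae were analysed here. The labels are at odds on the antibody, giving anti-GFP in 1 place and F44E2.7 in another. The sequenced material was whole larvae, in which a weak signal in many cells and a strong signal in a few cells cannot be told apart.

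Chaperones bind unfolded or partly folded proteins and help them to reach or regain their native fold. HSP60 is the chaperonin of the mitochondrial matrix and works with a small partner chaperonin, HSP70 proteins bind short exposed segments in cycles driven by ATP, and HSP110 proteins release the nucleotide from HSP70 to restart that cycle. Many chaperone genes are induced by the heat shock factor HSF-1, which binds repeats of the unit GAA and its complement TTC, and those of the endoplasmic reticulum are induced by the unfolded protein response.

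The sequences under the 4 upstream peaks are printed because the base composition and the promoter words described further on can be read from them. They were read from the WBcel235 genome, which is the ce11 assembly, 5′ to 3′ on the strand of the named gene, and capitals mark the words searched for: GAANNTTC or TTCNNGAA, which are heat shock elements of 2 units, the TATA box word TATAAA, the repeat word GAGAG and the word GGTTCG that starts the B box of tRNA genes, each on both strands. The hsp-60 peak is at chrIII:1619006-1619275 on the plus strand, that of hsp-1 at chrIV:17278280-17278549 on the plus strand, and that of hsp-110 at chrIII:8447048-8447317 on the minus strand. For hsp-3 the stretch is chrX:6092125-6092349 on the minus strand, without the 45 bases of the peak that are untranslated leader.
hsp-60: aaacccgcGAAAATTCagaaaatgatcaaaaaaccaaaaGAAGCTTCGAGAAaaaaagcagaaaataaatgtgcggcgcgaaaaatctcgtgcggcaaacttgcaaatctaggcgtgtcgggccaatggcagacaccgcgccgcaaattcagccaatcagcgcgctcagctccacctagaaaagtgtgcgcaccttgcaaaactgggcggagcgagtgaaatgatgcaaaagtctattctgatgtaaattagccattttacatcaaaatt
hsp-1: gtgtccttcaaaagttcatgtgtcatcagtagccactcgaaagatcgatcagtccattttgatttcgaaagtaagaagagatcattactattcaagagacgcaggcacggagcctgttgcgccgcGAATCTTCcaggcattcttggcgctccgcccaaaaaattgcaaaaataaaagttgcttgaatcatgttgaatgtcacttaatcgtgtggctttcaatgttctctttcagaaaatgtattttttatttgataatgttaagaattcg
hsp-3: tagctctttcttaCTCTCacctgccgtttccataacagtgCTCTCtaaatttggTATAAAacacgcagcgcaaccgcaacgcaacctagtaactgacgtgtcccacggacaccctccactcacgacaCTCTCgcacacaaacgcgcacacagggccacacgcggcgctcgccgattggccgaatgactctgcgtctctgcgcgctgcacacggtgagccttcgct
hsp-110: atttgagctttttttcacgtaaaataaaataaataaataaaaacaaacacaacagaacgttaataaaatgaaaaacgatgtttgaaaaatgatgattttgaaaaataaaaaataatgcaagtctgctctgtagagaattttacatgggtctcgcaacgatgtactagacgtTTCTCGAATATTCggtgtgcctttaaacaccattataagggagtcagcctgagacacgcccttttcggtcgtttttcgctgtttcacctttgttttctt

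A total of 8 lists were searched. The pooled and the conservative list use both replicates, each replicate has a list of its own, and each of these exists in a thresholded form and in a longer ranked form. The authors selected and scored peaks by the irreproducible discovery rate (IDR). It is low for a peak that ranks both high and similarly in the lists of a comparison. A high IDR can therefore go with a weak peak as well as with differing ranks. Every thresholded peak had an IDR of 0.01 or lower. The pooled ranked list holds a further 91 entries at that level that the thresholded list lacks, for reasons not stated. The thresholded lists held 896 peaks (pooled), 864 (conservative), 178 (replicate 1) and 319 (replicate 2). The ranked lists held 65299 to 109271 entries, and in the pooled one 85.7% of all protein-coding genes had a summit somewhere between 1000 bp upstream of the start and the gene end, so presence in a ranked list alone says little. Signal is the authors' enrichment value on an unstated scale, and each rank given here is the rank by signal within 1 list. The deposited files hold no read counts, so depth is unknown.

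In the gene window, from 1000 bp upstream of the start to the gene end, a summit was found for 4 of the 4 genes in the pooled list, against 3.35% of all protein-coding genes. The promoter window, which is the window the choice of genes rests on, held a pooled summit for 4 of the 4 genes, against 1.51% of all genes, and nothing is read from either count. The conservative list held 3 of the 4 genes, all but hsp-110, against 3.32% of all genes. In replicate 1 alone hsp-60 and hsp-1 had a summit, 2 of 4 genes against 0.656% of all genes. In replicate 2 alone hsp-60 had one, 1 of 4 genes against 1.21%. Only hsp-60 was thus present in all 4 thresholded lists.

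**Figure D1:**
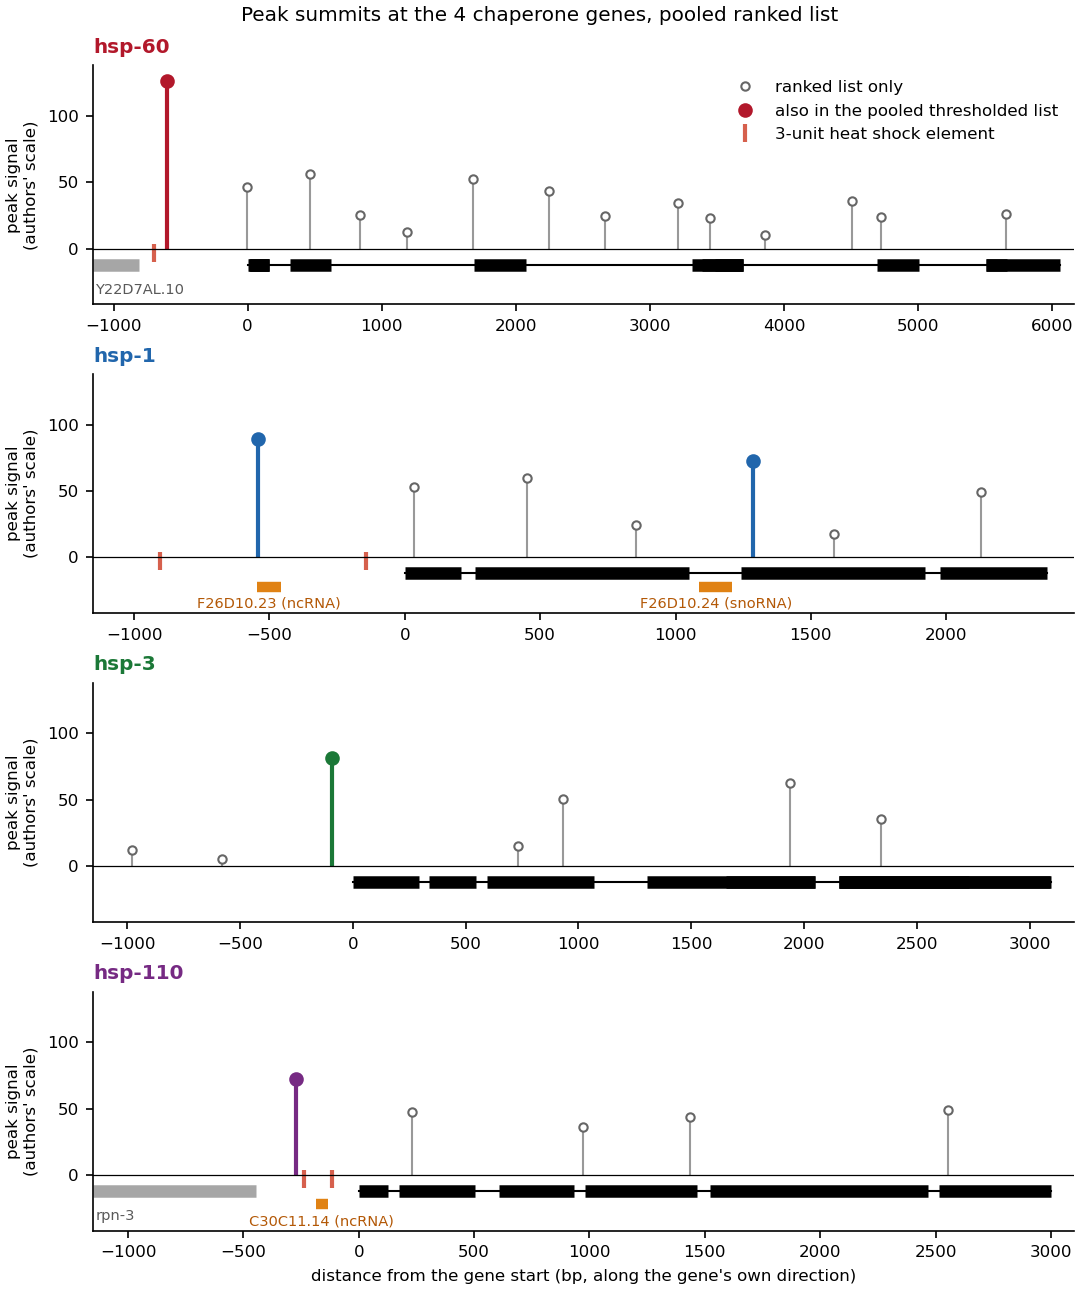
Peak signal in the pooled ranked list (authors' scale, vertical axis) against distance of the summit from the gene start (bp, horizontal axis) at hsp-60, hsp-1, hsp-3 and hsp-110. Filled points are also in the pooled thresholded list, open points are not; black bars are exons, grey bars the neighbouring protein-coding genes, orange bars small RNA genes and red ticks heat shock elements of 3 units. The filled upstream peaks lie 601, 544, 91 and 274 bp before the starts and hsp-1 has another 1288 bp inside the gene.

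The hsp-60 gene (WBGene00002025, chrIII:1619742-1625803, plus strand) encodes the mitochondrial chaperonin and had the highest peak of the 4. Its summit, at position 1619141, lies 601 bp upstream of the start and between protein-coding genes. The signal was 126 in the pooled list (rank 120 of 896), 69.1 in replicate 1 (rank 64 of 178) and 56.6 in replicate 2 (rank 273 of 319), with authors' scores of 1000, 1000 and 881. The IDR was 0.000606 in the pooled list, 0.000629 in the conservative one, 0.00194 in replicate 1 and 0.00753 in replicate 2. Both replicates therefore placed this peak past the threshold, and their summits were 8 bp apart.

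The same hsp-60 peak faces a second chaperone gene. Y22D7AL.10 (minus strand), whose product RefSeq names a mitochondrial 10 kDa heat shock protein, the partner of the chaperonin, starts 813 bp from hsp-60 and runs the other way. The summit is 212 bp upstream of the Y22D7AL.10 start, nearer to it than to the hsp-60 start, and lies in the promoter window of both genes. Which of the genes the peak belongs to was not tested. Of the 14 pooled ranked summits in the hsp-60 window, this one had 2.24 times the signal of the next, which was 56.2 at 462 bp inside the gene. No small RNA gene lay within 200 bp of it.

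The hsp-1 gene (WBGene00002005, chrIV:17278959-17281330, plus strand) encodes the constitutive cytosolic HSP70 and was the only one of the 4 with a pair of peaks in the pooled list. The upstream peak, 544 bp before the start with its summit at 17278415, had a pooled signal of 88.9 (rank 382), a score of 1000 and an IDR of 0.00231. The other, with its summit at 17280247 in coding exon 3 and 1288 bp inside the gene, had a signal of 72.6 (rank 725), a score of 953 in the pooled list and 904 in the conservative one. Both summits sit beside small RNA genes: the upstream one lies inside the ncRNA gene F26D10.23, and the exonic one is 78 bp from the snoRNA gene F26D10.24.

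The replicates differed on which hsp-1 peak ranked higher. In replicate 1 the exonic peak had a signal of 53.0 and an IDR of 0.00715, past the threshold, and the upstream peak 39.9 and an IDR of 0.0908. In replicate 2 the upstream peak had a signal of 49.5 and an IDR of 0.0471, and the exonic peak 32.8 and an IDR of 0.788, so neither passed. Each replicate's upstream summit was nonetheless in the same place, 1 bp apart.

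The hsp-3 gene (WBGene00002007, chrX:6089028-6092124, minus strand) encodes a BiP protein, the HSP70 of the endoplasmic reticulum. Its peak had the summit nearest to a start, 91 bp upstream at 6092215, with a signal of 81.6 (rank 514), a score of 968 and an IDR of 0.00466 in the pooled list and 0.00645 in the conservative one. RefSeq starts the gene 339 bp further downstream, and from that start the summit is 430 bp upstream. Taken alone, replicate 1 gave this peak a signal of 33.4 (rank 1754 of 65299, IDR 0.232) and replicate 2 gave it 41.2 (rank 1412 of 71635, IDR 0.0826), so it passed in neither. In replicate 2 another hsp-3 summit, 1996 bp inside the gene, had a slightly higher signal of 41.8. The replicate summits of the upstream peak were 12 bp apart, and no small RNA gene lay within 200 bp of the pooled summit.

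The hsp-110 gene (WBGene00016250, chrIII:8443910-8446909, minus strand) encodes the HSP110 protein, and in the pooled list its peak was the weakest of the 4 upstream peaks. The summit, at 8447183 and 274 bp upstream, had a pooled signal of 72.4 (rank 729), a score of 860 and an IDR of 0.00848. In the conservative ranked list its IDR was 0.0121, which misses the threshold of 0.01, and its score 795. Replicate 1 gave a signal of 36.9 with an IDR of 0.0499 and replicate 2 gave 32.7 with an IDR of 0.497, and their summits were 79 bp apart, the widest of the 4. In replicate 2 a summit 1042 bp inside hsp-110 was higher, at 36.0.

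This peak too sits between divergent genes. Its summit is 170 bp upstream of rpn-3, which encodes a subunit of the proteasome and starts 444 bp from hsp-110, and 88 bp from the ncRNA gene C30C11.14. For hsp-3, by contrast, the divergent neighbour C15H9.5 starts 1176 bp away, and the summit is outside its promoter window. A small RNA gene lay within 200 bp of a pooled summit for 2 of the 4 genes, namely at both summits of hsp-1 and at that of hsp-110. Counted by summit and not by gene, 357 of all 896 pooled summits (39.8%) had one.

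**Figure D2:**
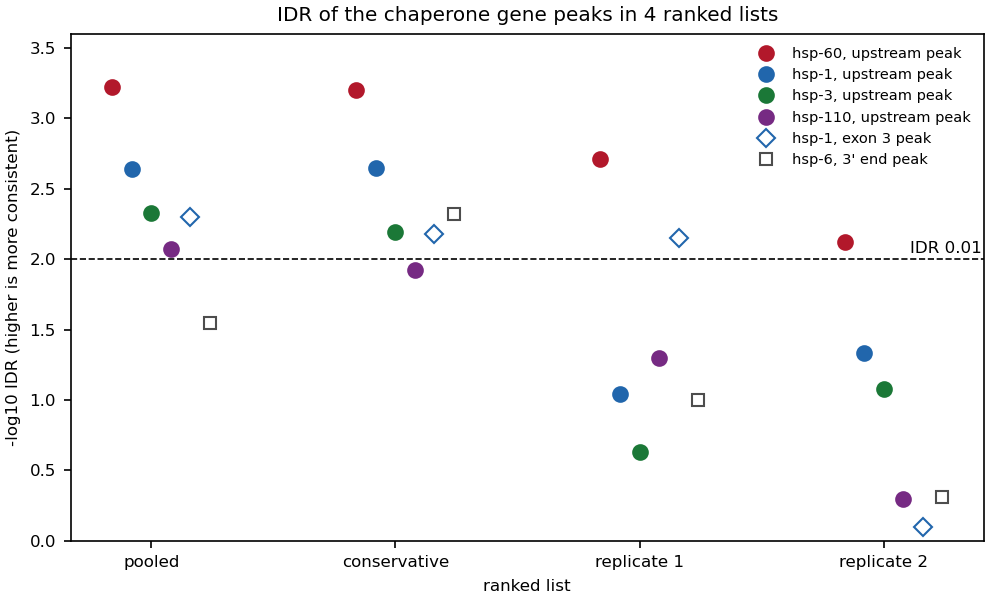
The −log10 of the IDR of each peak (vertical axis) in the pooled, conservative, replicate 1 and replicate 2 ranked lists (horizontal axis). Filled circles are the upstream peaks of hsp-60, hsp-1, hsp-3 and hsp-110, the open diamond is the hsp-1 exon 3 peak, the open square the peak at the 3′ end of hsp-6, and the dashed line an IDR of 0.01; only hsp-60 is above the line in all 4 lists.

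Within the pooled list the 4 upstream peaks ran from rank 120 to rank 729. The median signal of the 896 peaks was 85.1, and hsp-60 and hsp-1 were above it, while hsp-3 and hsp-110 were below it. Ranked over all 19973 genes by the highest signal in the promoter window of the pooled ranked list, 99.79% of genes were at or below hsp-60, 99.31% at or below hsp-1, 99.08% at or below hsp-3 and 98.54% at or below hsp-110. In replicate 1 these shares were 99.89% for hsp-60, 99.1% for hsp-1, 97.54% for hsp-3 and 98.57% for hsp-110. In replicate 2 they were 99.46% for hsp-60, 99.08% for hsp-1, 98.03% for hsp-3 and 93.76% for hsp-110. The replicates are the sources of the pooled list that chose the genes, so these shares are not independent of the choice.

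**Figure D3:**
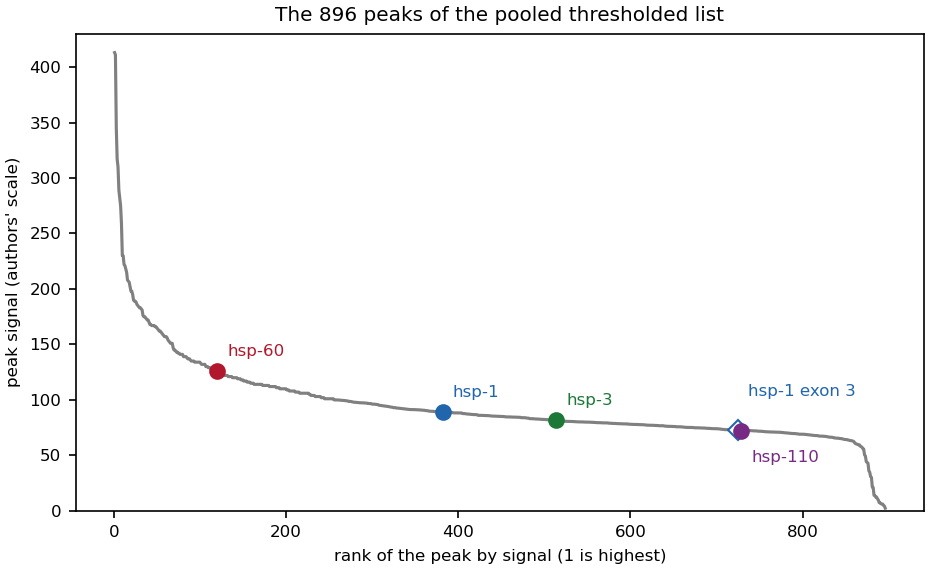
Signal of the 896 peaks of the pooled thresholded list (authors' scale, vertical axis) in order of rank (horizontal axis). Filled circles mark the upstream peaks of hsp-60 (126), hsp-1 (88.9), hsp-3 (81.6) and hsp-110 (72.4), and the open diamond the hsp-1 exon 3 peak (72.6), close to that of hsp-110.

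The base composition of the peaks differed widely. GC content over 50 bp to either side of the summit was 57.4% at hsp-60, 48.5% at the upstream peak of hsp-1, 63.4% at hsp-3 and 32.7% at hsp-110. Over all 896 pooled summits the mean was 49.7% ± 8.61 (SD, n = 896 summits), 96.4% of summits were at or below hsp-3 and 3.46% at or below hsp-110. The exonic hsp-1 peak, at 46.5%, was in the middle of that range.

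Heat shock elements of 2 units were found under 3 of the 4 upstream peaks. Of the printed sequences, hsp-60 holds 3 words of 2 units, at −728, −697 and −692 bp from the start, hsp-110 holds 2, at −237 and −232 bp, and hsp-1 holds 1, GAATCTTC, at −554 bp, beside the summit at −544 bp. Over windows of 271 bp, 21.7% of the 896 pooled summits and 29.1% of the stretches directly upstream of all 19973 genes hold such a word. The overlapping words form an element of 3 units, in which GAA and TTC alternate with any 2 bases between them, at hsp-60 (GAAGCTTCGAGAA, 96 bp from the summit) and at hsp-110 (TTCTCGAATATTC, 37 bp from the summit). An element of 3 units is in 1.9% of the summit windows (17 of 896) and in 1.76% of the upstream windows.

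Elements of 3 units were also present upstream of genes with no summit in the pooled thresholded list. In the 1000 bp upstream of the start, 3 of the 4 genes and 9 of the other 18 hsp- genes had one, against 6.54% of all genes. The 9 genes are not 9 separate sites. The divergent genes hsp-16.2 and hsp-16.41 share an element, −70 bp from the hsp-16.2 start and −163 bp from the hsp-16.41 start. Each hsp-16.1 gene likewise shares its elements with a divergent hsp-16.48 gene. Shared elements were thus counted again for the neighbouring gene, so the count of 9 overstates the separate sites. Another hsp-16.2 element, at −224 to −212 bp, lies beside a pooled ranked summit at −210 bp (signal 46.2, IDR 0.136). Both hsp-16.1 genes and both hsp-16.48 genes hold long identical runs, described below, so nothing is read from the lack of a pooled summit there. At hsp-1 the elements of 3 units lie at −903 and −144 bp, both outside the peak, and hsp-110 has another at −115 bp, also outside it. At hsp-3 none was found. These matches are letters in a window, and binding by a heat shock factor was not measured.

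The hsp-3 sequence differs from the other 3 in its words. It holds TATAAA at −171 bp, GAGAG read on the other strand at −212, −185 and −98 bp, TGACGTG at −132 bp and CCAAT read on the other strand at −52 bp. TATAAA is in 16.9% of the pooled summit windows and 37.1% of the upstream windows, GAGAG in 48.0% and 36.3%, and TGACGTG, a word related to the sites of factors of the unfolded protein response, in 2.01% and 2.59%. CCAAT also occurs at hsp-60, at −614 and −584 bp, 13 and 17 bp from the summit, and is in 40.7% of summit windows and 41.6% of upstream windows. The word GGTTCG is in 26.1% of the pooled summit windows and 3.08% of upstream windows, and none of the 5 peaks at the 4 genes holds it.

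Of the other 18 hsp- genes 0 had a summit in the pooled list, against 3.35% of all genes, 0 in replicate 1, against 0.656%, and 0 in replicate 2, against 1.21%. In the conservative list 1 of the 18, hsp-6, had a summit, against 3.32% of all genes. With shares this low, a count of 0 or 1 among 18 genes is near the background. The highest pooled ranked signal in the gene window was 72.4 to 126 (median 85.2) for the 4 genes and 27.9 to 81.6 (median 42.9) for the 13 of the 18 others that had a summit. The 4 genes were chosen on pooled peaks that the other 18 lack, so nothing is read from this difference. The replicate values below share its reads and are not independent of the choice. The windows of the 4 genes are also longer, with a median of 4048 bp, against 2104 bp for the other 18 and 3027 bp for all genes, and the part of window length in the difference was not tested. In the pooled ranked list the ranges overlap only through hsp-6, whose signal of 81.6 equals that of hsp-3 to 3 digits. In replicate 1 the highest signals were 33.4 to 69.1 for the 4 genes and 12.4 to 44.9 for the 15 others with a summit, and hsp-6 (44.9) again made the overlap. In replicate 2 they were 36.0 to 56.6 for the 4 genes and 11.9 to 46.5 for the 13 others with a summit. There hsp-25 (46.5), hsp-12.3 (46.2), hsp-90 (40.9) and hsp-6 (36.3) all lay inside the range of the 4 genes.

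The gene hsp-6 encodes the mitochondrial HSP70, which works in the same compartment as hsp-60. Its peak lies in the 3′ untranslated region, 2513 bp inside the gene with the summit at chrV position 4824247, and not at the promoter. In the conservative list it had rank 495, a score of 963 and an IDR of 0.00477, and in the pooled ranked list a score of 644 and an IDR of 0.0281. Replicate 1 gave it a signal of 44.9 (IDR 0.0994) and replicate 2 gave it 36.3 (IDR 0.49). The next gene, adss-1, starts 824 bp downstream of the summit on the same strand, so the summit is upstream of that gene too.

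Just outside the threshold of the pooled list, hsp-110 at an IDR of 0.00848 being just inside, came hsp-25 with an IDR of 0.0167. This gene of the small heat shock protein family had a summit in an intron, 1773 bp from the start and inside the ncRNA gene C09B8.10, with a signal of 62.3. At an IDR of 0.05 the others were hsp-6 and hsp-90, which encodes the cytosolic HSP90, with an IDR of 0.0351 at 1429 bp inside the gene. The endoplasmic reticulum gene hsp-4 encodes the other BiP protein beside hsp-3, and its lowest IDR was 0.059, at 619 bp upstream, with a signal of 57.2. In its promoter window replicate 2 had a signal of 33.1 (94.15% of genes at or below), and replicate 1 had no summit.

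The remaining genes were further from the threshold in the pooled ranked list, but not all of them in the conservative one. There hsp-12.3, a small heat shock gene, had an IDR of 0.0269 and was nearer to the threshold than hsp-4 (0.0517), hsp-25 (0.143) and hsp-90 (0.177). The heat-inducible small heat shock genes hsp-16.2 and hsp-16.41 share 1 summit between them, of signal 46.2 and IDR 0.136. No pooled ranked summit was found for 5 genes, namely hsp-12.6, both genes named hsp-16.1 and both named hsp-16.48. The hsp-16.1 genes share an identical run of 490 bp and the hsp-16.48 genes are identical over 487 bp. Reads from within these runs cannot be placed on a single copy from sequence alone, and how the authors placed such reads is not stated. The stretches upstream of these genes were not compared. For the other genes the lowest pooled IDR was 0.0664 for hsp-12.3 (signal 42.3), 0.077 for hsp-43 (42.9), 0.229 for hsp-12.2 (34.2) and 0.254 for hsp-75 (37.5). It was 0.315 for hsp-12.1 (27.9), 0.354 for hsp-70 (30.0) and 0.386 for hsp-17 (22.7).

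**Figure D4:**
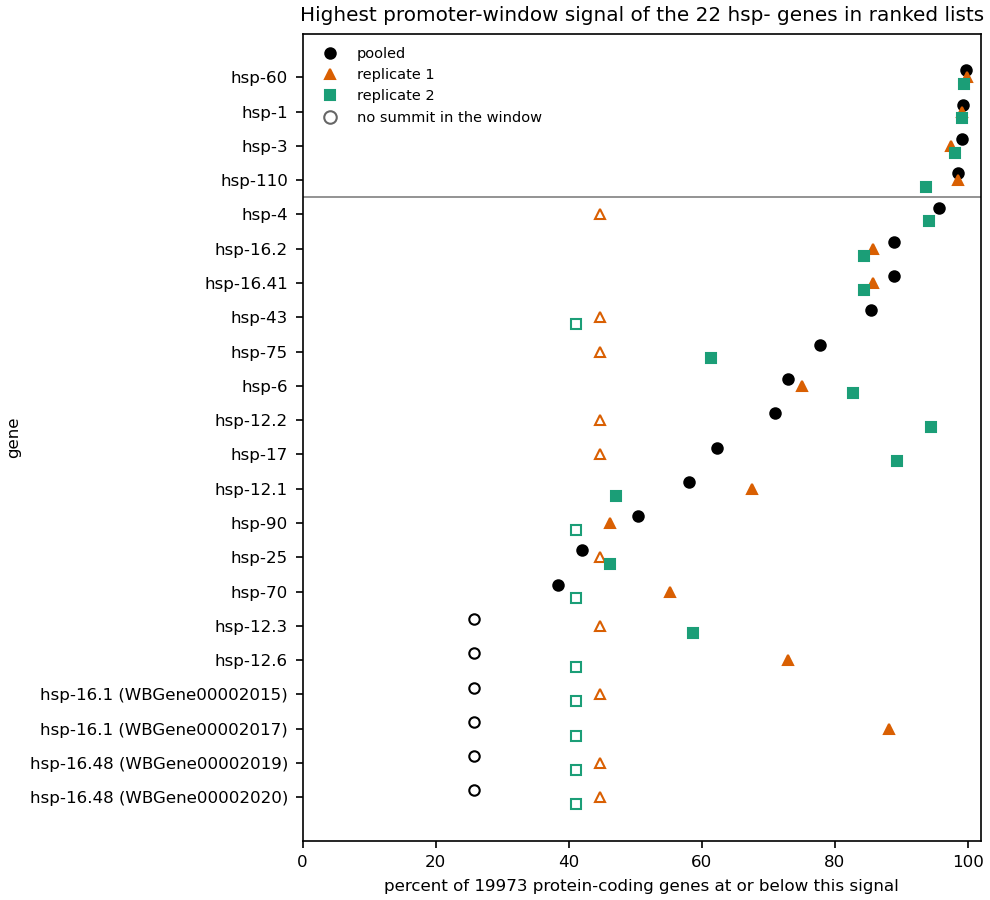
Percent of 19973 protein-coding genes at or below each hsp- gene in the highest promoter-window signal (horizontal axis), in the pooled (circles), replicate 1 (triangles) and replicate 2 (squares) ranked lists; open symbols mark genes with no summit in the window. The 4 genes above the line lie between 93.76% and 99.89% in all 3 lists, and hsp-4 is the next in the pooled list at 95.62%. In replicate 2 hsp-12.2 (94.49%) and hsp-4 (94.15%) are above hsp-110 (93.76%).

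Other genes of protein folding were taken from 6 lists of 87 genes, which include hsp-6 and hsp-90 and none of the 4 genes. In the pooled list 9 of these 87 genes (10.3%) had a summit in the gene window, against 3.35% of all genes, but 1 of them is Y22D7AL.10, which shares the hsp-60 summit. In the promoter window 6 of the 87 had one, Y22D7AL.10 again among them, against 1.51% of all genes. The part of window length in these counts was not tested. The cytosolic chaperonin and prefoldin list had 2 of 14, both subunits of the chaperonin: cct-8, with a signal of 101 at 428 bp upstream and near the ncRNA gene Y55F3AR.4, and cct-1, with 71.1 in a coding exon. Co-chaperones of HSP90 and HSP70 had 2 of 12, bag-1, a nucleotide exchange factor of HSP70 (79.5, 178 bp upstream), and hip-1 (80.8, in a coding exon 6840 bp from the start).

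The J proteins, which stimulate HSP70, had 3 of 29: dnj-29 (82.1, 136 bp upstream), dnj-5 (71.5, 867 bp upstream) and dnj-19 (67.8, in a coding exon). The endoplasmic reticulum folding list had 1 of 14, the calnexin gene cnx-1 (74.0, 325 bp upstream and near the ncRNA gene ZK632.16), and the mitochondrial list had 1 of 13, Y22D7AL.10. The stress regulators, hsf-1 among them, had 0 of 5. In the conservative list 6 of the 87 genes (6.9%) had a summit, hsp-6 among them, against 3.32% of all genes. In each replicate's list 1 of 87 (1.15%) had one, against 0.656% of all genes in replicate 1 and 1.21% in replicate 2. It was Y22D7AL.10 both times, through the peak shared with hsp-60, a gene chosen on that peak, so nothing is read from these shares.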

How the data were processed

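Per the accompanying file notes, the deposited peak lists are on ce11, and each was made from both replicates together or from 1 replicate alone. The thresholded lists also derive from a further file whose role is not stated. The aligner and peak caller, with their settings, were not given in sources used here. Each deposited list holds the authors' score (capped at 1000) and signal, and each ranked list the −log10 IDR and the signals of the matched peaks. The 2 ranked series lists were assigned to the pooled and conservative lists by matching scores (100% against 45.2% and 46.9%). The conservative list was taken to pair the replicates, since at 8 of 8 peaks checked its matched signals recur in the replicates' lists (tolerance 0.0001), and the other to come from pooled reads, which is an inference.

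Summits were counted in gene windows of the Ensembl annotation (WBcel235, whose chromosomes contain all peaks) and are 1-based. Small RNA genes were tRNA, snoRNA, snRNA, ncRNA, miRNA, rRNA, lincRNA, antisense, piRNA and tRNA pseudogenes. Since the members were chosen on these peaks, no test was run. Members and gene lists were chosen with earlier results of these data known, and the CCAAT word, the TGACGTG word and the element of 3 units were searched after the sequences had been read. Named genes were the 4, every other hsp- gene, each listed chaperone gene with a pooled summit, and neighbours of the summits. The symbols daf-21 and hsf-2 were not found. The counting was tested on simulated data. Alternatives were other lists, IDR thresholds, windows and distances. Software was pandas 2.3.3, matplotlib 3.10.9 and numpy 2.4.6 under Python 3.11.15.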

Additional observations from a re-analysis of the deposited data

How the results depend on the processing

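The pooled counts were 4 of the 4 genes, 0 other hsp- genes, 3.35% of all genes, 2 of the 4 genes with a small RNA gene near a summit, and 9 listed chaperone genes. In the conservative list 1 other hsp- gene (hsp-6) had a summit and 1 of the 4 genes a small RNA gene near one. To leave out a replicate, the other one's own thresholded list (319 or 178 peaks) was used. These are shorter lists with their own IDR values, and the pooled list was not made again. In them the 4 genes gave 1 to 2, all genes 0.656% to 1.21%, genes near a small RNA gene 0 to 1 and the listed genes 1. At an IDR of 0.001 the counts were 1 (hsp-60), 0.731%, 0 near a small RNA gene and 1 listed gene (Y22D7AL.10). At an IDR of 0.05 in the pooled ranked list 3 other hsp- genes, 11.0% of all genes and 24 listed genes had a summit. In the promoter window 1.51% of all genes had one. The causes were not tested, although stricter thresholds and shorter windows leave fewer peaks by construction. With 500 bp upstream the count of the 4 genes was 3, without hsp-60. The upstream hsp-1 summit, at −544 bp, is also outside that window, and hsp-1 was counted through its exon 3 summit alone. No paired analysis was possible because the 2 replicates form 1 group. The files hold no counts, so what depth limits is unknown.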

Other observations

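Some entries of the lists share the peaks they were matched to. In replicate 1 the thresholded list holds 2 entries in hsp-1 for 1 matched pair, with signals of 53.0 and 2.16 at 1277 and 1480 bp from the start and scores of 890 and 888. The lower signal is the lowest of the 178. Such sharing affected 8 of 178 entries in replicate 1, 0 of 319 in replicate 2, 32 of 896 in the pooled list and 36 of 864 in the conservative list. The hsp-90 entry at an IDR of 0.0351 was of this kind: its signal was 14.3, and the entry 1221 bp from the start with the same matched pair had 43.7.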
